A study of Mus musculus with 12 samples.

Results

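The circadian clock genes described here are 10 genes of the molecular clock and its direct outputs: Arntl and Npas2 as activators, and Per1, Per2, Per3, Nr1d1, Nr1d2, Ciart, Dbp and Tef as their targets. They were taken by symbol from a table of transcript abundances, and the transcripts of each gene were summed, which gave 10 of the 35688 genes of the table. The RNA came from the full-thickness colon of mice aged 2 weeks. They were 6 Il10-/- Tnfr1-/- mice, which lack interleukin 10 and TNF receptor 1, and 5 Il10-/- mice, which lack interleukin 10 alone. All 11 animals therefore carry the Il10 deletion, a setting in which mice develop colitis, and the series has no wild-type colon. The labels give no time of day, light schedule, sex or litter, so the clock phase of each animal at collection is not known.

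The mammalian clock is a feedback loop. ARNTL (also called BMAL1) pairs with CLOCK or with its relative NPAS2 and binds E-box sequences, and so switches on Per and Cry genes, whose proteins return to the nucleus and repress that pair. The nuclear receptors REV-ERBα and REV-ERBβ, encoded by Nr1d1 and Nr1d2, are switched on by the same pair and in turn repress Arntl. In tissues sampled around the day, Arntl and Npas2 peak at nearly the opposite time to Nr1d1, Dbp and the Per genes, and the gut has such rhythms in its epithelium and muscle layers. Animals collected at mixed phases can thus show activators high where targets are low, and the libraries are described below with that opposition in view.

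Sequence around the start sites of several of the genes has letters that match elements bound by factors of the clock. A promoter was available for 9 of the 10 genes, from RefSeq on the mouse build GRCm38.p6 (mm10), covering 250 bases before to 50 after each annotated start; it was searched on both strands. The E-box CACGTG, bound by the activator pair, was found in Per1, Tef and Ciart, and in 8.09% of all 27025 genes with a promoter. The related E-box CACGTT was found in Nr1d1 (5.44% of all genes). The letters AGGTCA, the core of the site of nuclear receptors such as REV-ERB and ROR, were found in Arntl, Per1 and Nr1d2 (18.1% of all genes). The D-box pattern TTANNTAA, bound by DBP and TEF, was found in Per3 and Tef (6.93% of all genes). None of these motifs was found in Npas2 or Dbp. The motifs do not overlap one another in these promoters. A match describes letters only, and no binding was measured.

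For each of 6 genes, 1 stretch with such motifs is shown 5′ to 3′ on the strand of the gene. The stretches hold letters that match elements known to be bound by the activator pair, the REV-ERB receptors or the D-box factors. Capitals mark the motif on either strand. Ciart has 3 E-boxes in its stretch, chr3:95882255-95882356 on the minus strand, which ends 27 bases before the start site. Per1 has 1 E-box and, read on the other strand, 1 AGGTCA in chr11:69098771-69098829 on the plus strand. Per3 has 2 D-boxes with the same 8 letters in chr4:151044804-151044882 on the minus strand. Tef has an E-box before its second annotated start in chr15:81811264-81811293 on the plus strand, Nr1d1 the other-strand form of CACGTT in chr11:98775388-98775417 on the minus strand, and Nr1d2 an AGGTCA in chr14:18239166-18239195 on the minus strand. The AGGTCA of Arntl, which lies after its start, and the E-box and D-box before the first annotated start of Tef are not printed.
Ciart: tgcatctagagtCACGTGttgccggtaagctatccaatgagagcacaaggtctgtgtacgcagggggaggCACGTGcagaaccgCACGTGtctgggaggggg
Per1: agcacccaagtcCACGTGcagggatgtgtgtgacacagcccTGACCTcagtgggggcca
Per3: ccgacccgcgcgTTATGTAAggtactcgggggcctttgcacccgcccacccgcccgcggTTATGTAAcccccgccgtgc
Tef: cacctggcccagCACGTGtctacatcgttt
Nr1d1: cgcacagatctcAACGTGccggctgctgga
Nr1d2: gattggaagaagAGGTCAggaccgctcgtt

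The values are abundances divided by transcript length, with a total per library between 804109 and 1378971. They are not counts, so depth is unknown. Tnfrsf1a, the gene of TNF receptor 1, was between 12.02 and 16.98 in Il10-/- Tnfr1-/- libraries and between 30.56 and 78.07 in Il10-/- libraries, with no overlap. Il10 still carried signal in every library, between 3.27 and 7.23 in Il10-/- Tnfr1-/- and between 9.06 and 22.9 in Il10-/- libraries. The abundances of 10 listed epithelial genes summed to between 8057 and 25560 in Il10-/- Tnfr1-/- and between 10720 and 23400 in Il10-/- libraries. Genes of smooth muscle (10 listed, among them Actg2, Myh11 and Des) summed to between 827.7 and 8010 in Il10-/- Tnfr1-/- libraries and to between 184.4 and 3505 in Il10-/- libraries, and all 10 were higher on average in Il10-/- Tnfr1-/- colons. In bulk tissue, fewer cells of a type and less RNA per cell cannot be told apart. Il10-/- Tnfr1-/- replicate 6 and Il10-/- replicate 1 also stood apart in genes that mark position along the colon. Car1, a carbonic anhydrase of the colon surface, was at 32160 in that Il10-/- Tnfr1-/- library and between 131.3 and 3564 in the other 5. Hoxb13, a homeobox gene of the distal gut, was at 140.5 in that Il10-/- library and between 2.42 and 28.8 in the other 4. The 2 libraries differed in opposite directions. Hoxb13 was lowest of its genotype in Il10-/- Tnfr1-/- replicate 6, at 0.033, and Car1 was lowest of its genotype in Il10-/- replicate 1, at 530.5. Hoxb13 was also at 63.42 in Il10-/- Tnfr1-/- replicate 3. Arntl and Npas2 were highest of each genotype in the same Il10-/- Tnfr1-/- replicate 6 and Il10-/- replicate 1.

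Arntl, the core activator, was measured at 6.57, 5.35, 9.53, 6.67, 4.60 and 9.97 in Il10-/- Tnfr1-/- replicates 1 to 6, against 11.04, 5.50, 6.15, 5.72 and 5.34 in Il10-/- replicates 1, 2, 3, 5 and 6. Replicates 3 and 6 of Il10-/- Tnfr1-/- and replicate 1 of Il10-/- stood above the rest, and the genotypes overlapped. The means were 7.12 ± 2.19 (SD, n = 6) in Il10-/- Tnfr1-/- and 6.75 ± 2.42 (SD, n = 5) in Il10-/- colons. Npas2, the partner that can stand in for CLOCK, was at 8.02, 5.50, 7.21, 7.18, 6.13 and 10.75 in Il10-/- Tnfr1-/- libraries, against 10.02, 6.12, 7.53, 5.31 and 5.06 in Il10-/- libraries. Its highest value in each genotype was in the library that was also highest in Arntl. The log2 fold change between genotypes (Il10-/- Tnfr1-/- minus Il10-/-) was 0.07 ± 0.244 (SE) for Arntl and 0.14 ± 0.213 (SE) for Npas2, with limma adjusted p-values of 0.898 and 0.777 over 13293 genes.

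The nuclear receptor genes did not share a pattern. Nr1d1, which encodes REV-ERBα, a haem-binding repressor of Arntl, was at 9.81, 13.05, 11.83, 8.85, 10.81 and 19.12 in Il10-/- Tnfr1-/- libraries, against 17.78, 12.12, 12.58, 7.91 and 7.96 in Il10-/- libraries. Its highest library in each genotype was again the one highest in Arntl and Npas2. Nr1d2, which encodes REV-ERBβ, was at 10.34, 12.03, 17.24, 12.70, 14.11 and 9.84 in Il10-/- Tnfr1-/- libraries, against 8.99, 10.63, 7.62, 9.91 and 5.10 in Il10-/- libraries. All 6 Il10-/- Tnfr1-/- values of Nr1d2 lay above the Il10-/- median of 8.99, and 4 lay above every Il10-/- value. The library with the most Nr1d1 was the lowest for Nr1d2 among Il10-/- Tnfr1-/- libraries, and the median one among Il10-/- libraries.

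The Period genes encode the repressors that close the loop. Per1, which also responds quickly to glucocorticoids, was at 8.50, 7.49, 12.42, 8.05, 9.56 and 8.37 in Il10-/- Tnfr1-/- libraries, against 6.99, 8.66, 12.89, 10.58 and 8.73 in Il10-/- libraries. Replicate 3 was the highest of its genotype in both cases. Per2 was at 5.38, 3.59, 8.27, 4.67, 6.86 and 3.11 in Il10-/- Tnfr1-/- libraries, against 3.62, 4.72, 4.33, 9.80 and 3.66 in Il10-/- libraries. Its top value was in Il10-/- replicate 5, more than any Il10-/- Tnfr1-/- library. Per3, whose loss has mild effects on mouse rhythms, was at 5.18, 5.34, 8.80, 4.99, 8.90 and 4.74 in Il10-/- Tnfr1-/- libraries, against 2.47, 5.23, 6.33, 7.19 and 4.28 in Il10-/- libraries. Per3 was lowest in Il10-/- replicate 1, the library with the most Arntl. All 3 genes overlapped between genotypes.

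Dbp and Tef encode PAR-domain transcription factors that act through D-boxes, and Dbp is among the most rhythmic clock outputs in many tissues. Dbp was at 10.28, 11.91, 13.88, 17.76, 14.80 and 12.27 in Il10-/- Tnfr1-/- libraries, against 5.35, 8.15, 12.96, 8.61 and 6.95 in Il10-/- libraries. Only Il10-/- replicate 3 reached into the range of the Il10-/- Tnfr1-/- libraries, and the other 4 Il10-/- libraries lay below all 6 of them. Tef was at 11.48, 15.19, 18.99, 15.48, 14.59 and 12.77 in Il10-/- Tnfr1-/- libraries, against 7.25, 11.03, 17.70, 13.21 and 9.86 in Il10-/- libraries. All 6 Il10-/- Tnfr1-/- values exceeded the Il10-/- median of 11.03, and again Il10-/- replicate 3 was the highest and replicate 1 the lowest of its genotype. Ciart, a repressor of the activator pair also known as CHRONO, was the least abundant member, at 1.81, 1.72, 1.28, 1.78, 2.29 and 3.11 in Il10-/- Tnfr1-/- libraries, against 2.20, 1.54, 1.90, 2.44 and 2.18 in Il10-/- libraries. Il10-/- Tnfr1-/- replicate 6 was the highest, and the genotypes overlapped.

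**Figure D1:**
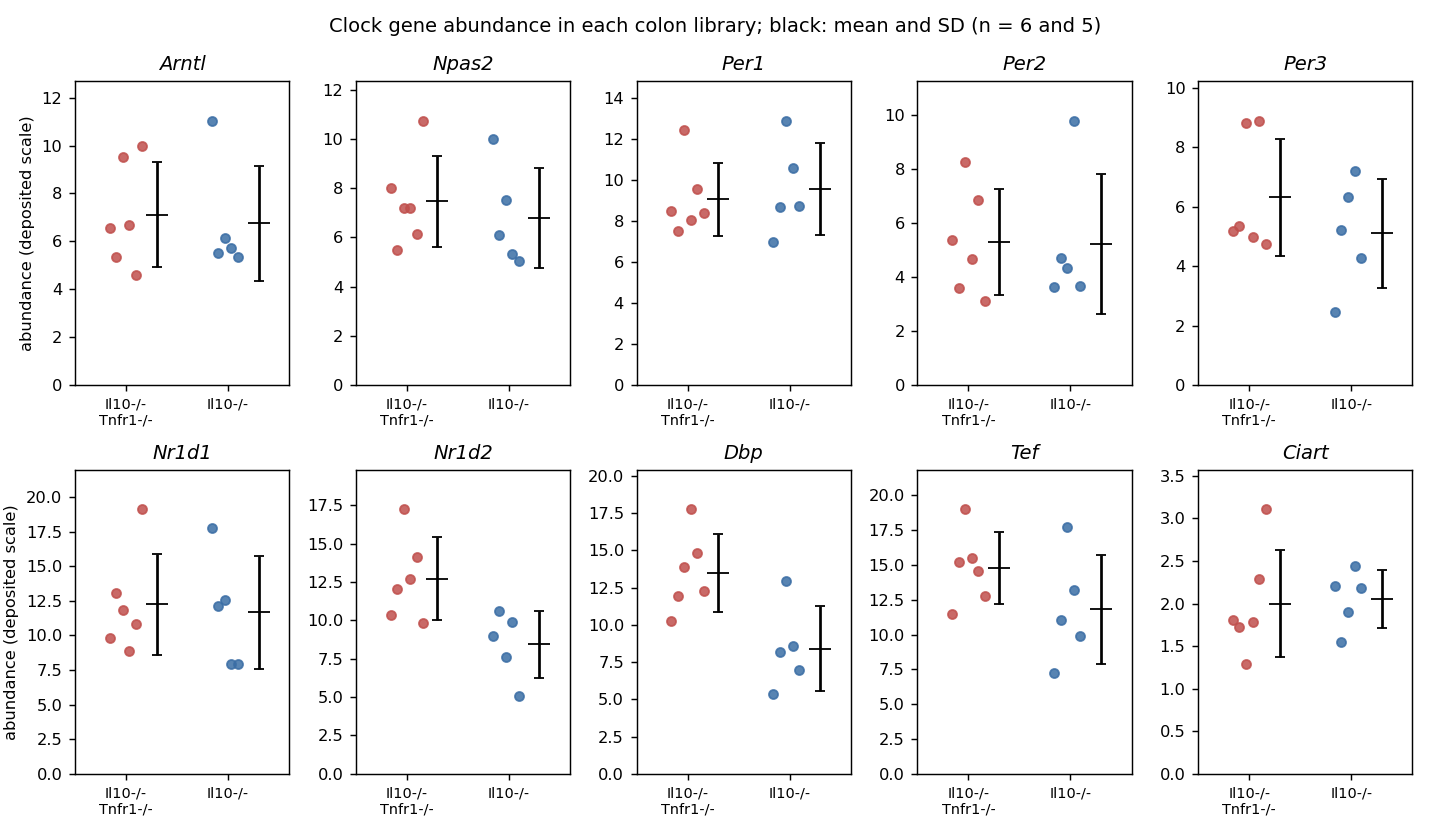
Abundance (deposited scale, length-scaled) of each of the 10 clock genes in every colon library, with Il10-/- Tnfr1-/- (n = 6) left of Il10-/- (n = 5); black marks give the mean and SD. For Dbp, 4 of the 5 Il10-/- libraries lie below all 6 Il10-/- Tnfr1-/- libraries, while for every gene the genotypes overlap.

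On the length-scaled abundances, the order of the members by mean over the 11 libraries was Tef at 13.4, Nr1d1 at 12.0, Dbp at 11.2, Nr1d2 at 10.8, Per1 at 9.30, Npas2 at 7.17, Arntl at 6.95, Per3 at 5.77, Per2 at 5.28 and Ciart at 2.02. Neighbours in this order overlapped over the libraries, except Ciart, which was the lowest of the 10 genes in each of the 11 libraries. The spread of the members was near that of other genes. The SD of log2 abundance within genotype had a median of 0.354 over the 10 members and of 0.412 over all 13293 genes tested. The widest was Per2, at 0.515, a larger SD than 65.8% of all genes, and the narrowest were Per1 at 0.28 and Ciart at 0.29. Between its lowest and highest library, Per3 differed 3.61-fold, Nr1d2 3.38-fold, Dbp 3.32-fold and Arntl 2.40-fold.

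Between the genotypes, the difference was largest for Dbp and Nr1d2. Dbp averaged 13.5 ± 2.62 (SD, n = 6) in Il10-/- Tnfr1-/- and 8.41 ± 2.84 (SD, n = 5) in Il10-/- colons, a log2 fold change of 0.69 ± 0.213 (SE). Its unadjusted limma p was 0.00722 and its exact permutation p over the 462 assignments of samples was 0.0152. Nr1d2 averaged 12.7 ± 2.71 (SD, n = 6) in Il10-/- Tnfr1-/- and 8.45 ± 2.18 (SD, n = 5) in Il10-/- colons, a log2 fold change of 0.58 ± 0.207 (SE) with an unadjusted limma p of 0.0159 and an exact permutation p of 0.0173. Both stayed under an unadjusted limma p of 0.05 when any 1 library was left out. Neither passed after Benjamini-Hochberg adjustment over all genes, where limma gave an adjusted p of 0.535 for both. No gene of the 13293 did (0%), so the members are set beside the unadjusted rate.

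At an unadjusted p under 0.05, 2 of the 10 members were counted, both higher in Il10-/- Tnfr1-/- colons. Of all genes 8.4% were, 4.81% as higher and 3.6% as lower. Without Il10-/- Tnfr1-/- replicate 6 and Il10-/- replicate 1 the same 2 members were counted, beside 19.9% of all genes, so that their share there was near that of all genes. On average 8 of 10 members were higher in Il10-/- Tnfr1-/- colons and 2, Per1 and Ciart, were lower, while 55.2% of all genes were higher. These small directions changed with scaling: Per1 and Ciart were higher with an equal total per library, and Arntl, Npas2, Per2 and Nr1d1 were lower with quantile normalization. The median log2 fold change of the members was 0.11, beside 0.05 for all genes. For 0.587% of all genes the genotypes did not overlap, and no member was among them. After Dbp and Nr1d2 came Tef at 0.35 ± 0.212 (SE, exact permutation p = 0.143) and Per3 at 0.31 ± 0.27 (SE, exact permutation p = 0.301). The remaining 6 members lay between -0.06 and 0.14.

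**Figure D2:**
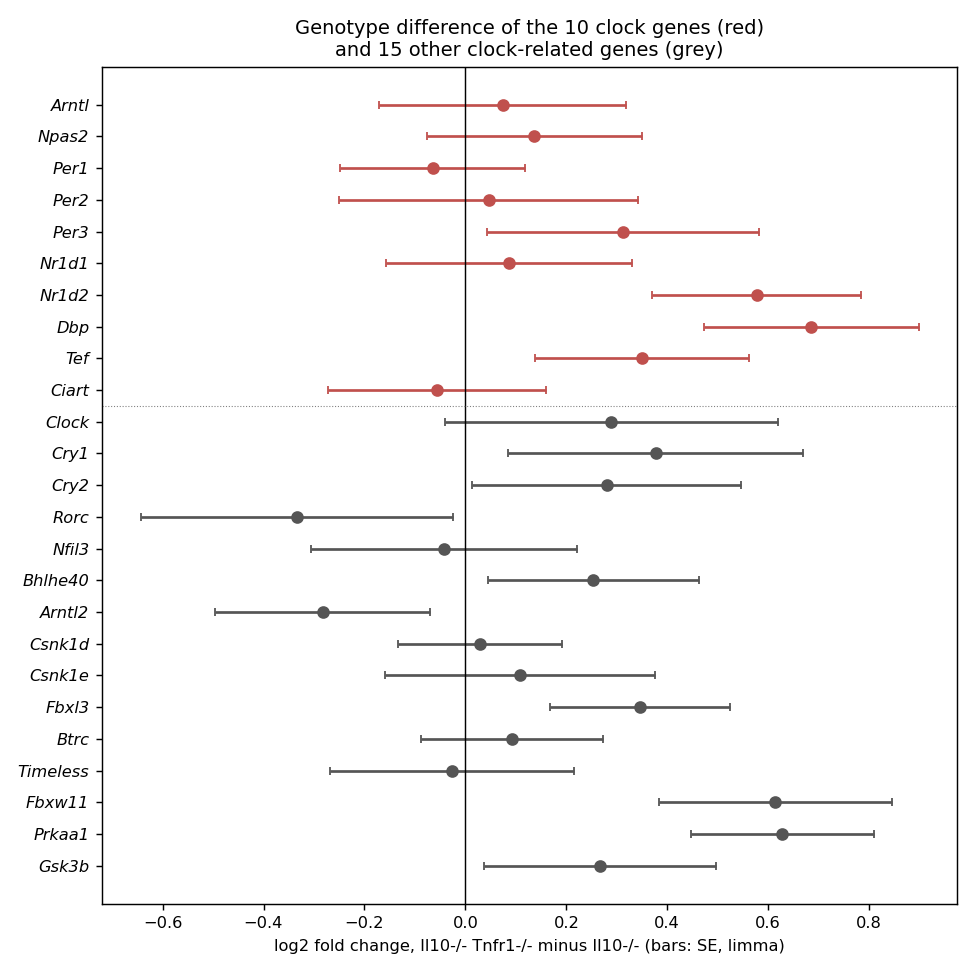
Log2 fold change, Il10-/- Tnfr1-/- minus Il10-/-, with its SE from limma, for the 10 clock genes (red) and 15 other clock-related genes (grey). Dbp at 0.69 and Nr1d2 at 0.58 are the members farthest from 0, and Fbxw11 at 0.61 and Prkaa1 at 0.63 lie between them among the other genes.

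Smooth muscle genes and a feature of the sample names moved with these differences. Over the 11 libraries, the smooth muscle score (the mean of the centred log2 abundances of the 10 listed genes) had r = 0.696 with Dbp, 0.60 with Nr1d2 and 0.553 with Tef, given here as a description. With that score as a covariate, the log2 fold change was 0.47 ± 0.237 (SE) for Dbp and 0.43 ± 0.243 (SE) for Nr1d2 (limma adjusted p = 0.913 for both), and neither stayed under an unadjusted p of 0.05. The epithelial score had r = -0.66 with Nr1d2 and -0.45 with Dbp. The sample names start with a digit from 1 to 4 whose meaning the labels do not give, and only names starting with 1 occur in both genotypes (2 Il10-/- Tnfr1-/- and 3 Il10-/- libraries). Within those 5 libraries the log2 fold change was 0.39 ± 0.393 (SE) for Dbp and 0.29 ± 0.247 (SE) for Nr1d2, of the same sign but smaller and not past an unadjusted limma p of 0.05.

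The opposition between activators and targets was then examined, first for each library. Values are log2 abundance relative to the mean of the gene over the 11 libraries. The mean of Arntl and Npas2 was highest in Il10-/- Tnfr1-/- replicate 6, at 0.57, and in Il10-/- replicate 1, at 0.59. In the Il10-/- Tnfr1-/- library, Per2 was at -0.60 and Per3 at -0.19, but Dbp was at 0.20 and Tef at -0.03. In the Il10-/- library, Per3 was at -1.01, Dbp at -0.92 and Tef at -0.80, so that high activators went with low D-box factors and low Per3. Nr1d1 was high in both, at 0.70 in the Il10-/- Tnfr1-/- library and 0.60 in the Il10-/- library, which is the reverse of an activator-target opposition.

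Il10-/- Tnfr1-/- replicate 5 had the converse arrangement, with Arntl at -0.50 and with Per3 at 0.65, Dbp at 0.46, Per2 at 0.43 and Nr1d2 at 0.43. Il10-/- replicate 5 showed it in part, with Per2 at 0.92 and Per3 at 0.36 above their means and Npas2 at -0.36 below. The opposition was not seen in 2 further libraries. In Il10-/- Tnfr1-/- replicate 3 Arntl, at 0.48, and all of Per1, Per2, Per3, Nr1d2, Dbp and Tef were above their means together. In Il10-/- replicate 6 Arntl, at -0.30, Npas2, at -0.43, Nr1d2, at -0.95, and Dbp, at -0.58, were all below. Il10-/- Tnfr1-/- replicate 3 and Il10-/- replicate 6 also had smooth muscle scores near opposite ends, at 2.26 and -2.38.

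**Figure D3:**
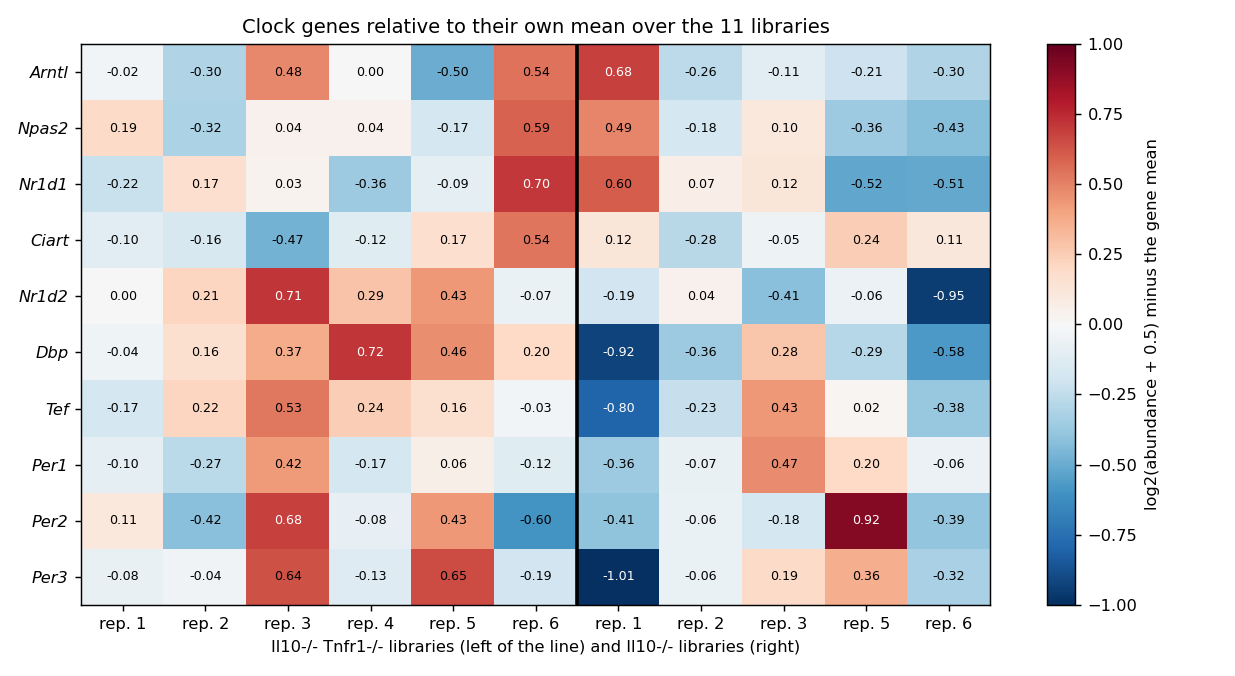
Log2(abundance + 0.5) of each clock gene minus its mean over the 11 libraries, with Il10-/- Tnfr1-/- libraries left of the line and Il10-/- libraries right of it; red is above and blue below the mean. Arntl, Npas2 and Nr1d1 are together highest in Il10-/- Tnfr1-/- replicate 6 and Il10-/- replicate 1, and Per3, Dbp and Tef are lowest in Il10-/- replicate 1.

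Over all 45 pairs of members, Pearson's r was computed on log2(abundance + 0.5) across the 11 libraries, with a two-sided permutation test and Benjamini-Hochberg adjustment over the 45 pairs. The 3 pairs that passed were all positive. With an equal total per library 12 pairs passed, and 0 did without any 1 of Il10-/- replicates 1, 2 and 6. Dbp and Tef, the D-box factors, had r = 0.871 (permutation p = 0.00054, adjusted 0.0243) and Spearman's rho = 0.845 (permutation p = 0.00165, adjusted 0.0742). Arntl and Npas2, the activators, had r = 0.833 (permutation p = 0.00176, adjusted 0.0396) and rho = 0.80 (permutation p = 0.00485, adjusted 0.109). Per3 had r = 0.814 with Tef (permutation p = 0.00281, adjusted 0.0421) and rho = 0.682 (permutation p = 0.0249, adjusted 0.211).

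The 2 libraries farthest from the median of the first gene weighed on each of these. Without them r was 0.673 for Dbp and Tef (exact permutation p = 0.0472), 0.586 for Arntl and Npas2 (exact p = 0.082) and 0.700 for Per3 and Tef (exact p = 0.0348). Without the 2 libraries farthest from the median of the second gene, r was 0.794 for Dbp and Tef (exact permutation p = 0.0118), 0.781 for Arntl and Npas2 (exact p = 0.0116) and 0.475 for Per3 and Tef (exact p = 0.199). The Dbp and Tef relation thus stayed under an exact permutation p of 0.05, not adjusted over pairs, in both removals. That of Arntl and Npas2 did not without the 2 libraries highest in Arntl, and that of Per3 and Tef did not without the 2 farthest in Tef. After centring within genotype, r was 0.870, 0.835 and 0.787 for these pairs in the same order, and none of the adjusted p-values was under 0.05 (0.0534, 0.0534 and 0.0998). Within the 6 Il10-/- Tnfr1-/- libraries r was 0.581, 0.777 and 0.602 (exact permutation p = 0.21, 0.0597 and 0.232), and the 5 Il10-/- libraries, like the 5 whose names start with 1, are too few for a correlation.

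Another 7 pairs reached an unadjusted permutation p under 0.05, all with positive r and adjusted p-values between 0.0628 and 0.21. Within the Period family, Per1 and Per3 had r = 0.741 and Per2 and Per3 had r = 0.737. Nr1d1 went with the activators, with r = 0.760 for Npas2 (permutation p = 0.00694, adjusted 0.0628) and 0.657 for Arntl (permutation p = 0.0297, adjusted 0.149). Without the 2 libraries farthest from the Arntl median, r for Arntl and Nr1d1 was 0.115 (exact permutation p = 0.798). Without the same 2 libraries, r for Npas2 and Nr1d1 was 0.323 (exact permutation p = 0.383). Without the 2 libraries farthest from the Npas2 median it was 0.546 (exact permutation p = 0.127). Over the 11 libraries rho was 0.627 for Npas2 and Nr1d1 (permutation p = 0.0433, adjusted 0.223). For Arntl and Nr1d1 rho was 0.427 (permutation p = 0.192, adjusted 0.54). Both relations of Nr1d1 were thus weaker without the 2 libraries highest in Arntl. Nr1d1 and its paralogue Nr1d2 had r = 0.12. Per1 and Tef, Per3 and Dbp, and Nr1d2 and Dbp made up the rest, with r of 0.677, 0.653 and 0.601.

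No negative pair passed after adjustment, and none had an unadjusted p under 0.05 for Pearson's r over the 11 libraries. Of the 16 pairs of an activator with a target, 9 were negative, with a median r of -0.14. The most negative were Arntl with Per3 and Npas2 with Per3, each at r = -0.43 (permutation p = 0.193 and 0.19, adjusted p = 0.50 for both; rho = -0.41 and -0.27). Without the 2 libraries farthest from the median of the activator, r was 0.232 for Arntl and Per3 (exact permutation p = 0.568) and -0.63 for Npas2 and Per3 (exact permutation p = 0.0705). On residuals of the smooth muscle score, r was -0.53 for Arntl and Per3 and -0.60 for Npas2 and Per3, while Npas2 and Ciart had 0.615. No pair passed after adjustment on those residuals. Of the 28 pairs of targets, 11 were negative, with a median r of 0.222 and Per2 with Nr1d1 lowest at r = -0.53 (permutation p = 0.094, adjusted 0.312). By ranks this pair had rho = -0.67 (permutation p = 0.0281, adjusted 0.211), and r was -0.23 without the 2 libraries farthest from the Nr1d1 median (exact permutation p = 0.536). Arntl and Ciart had r = 0.10 over the 11 libraries, but -0.71 without the 2 libraries highest in Arntl (exact permutation p = 0.029, not adjusted over pairs). The mean of the 2 activators and the mean of the 8 targets had r = -0.06 over the 11 libraries, a description since the means share libraries and scaling. An opposition of the whole activator arm to the whole target arm was therefore not detectable in these libraries; the pairs that passed lie within the activators or within the targets.

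**Figure D4:**
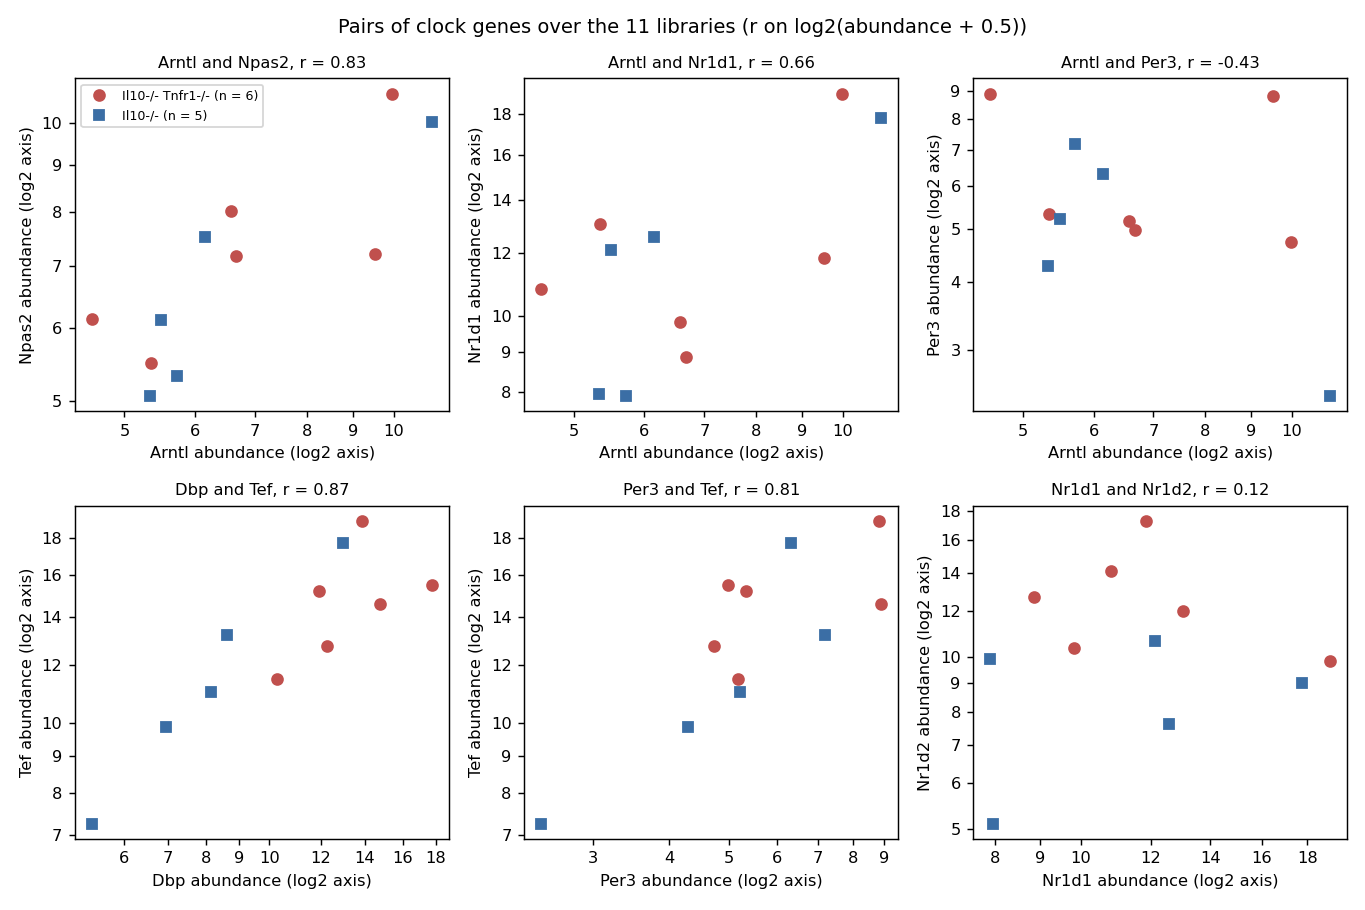
Abundance of 6 pairs of clock genes on log2 axes, 1 point per library, with Il10-/- Tnfr1-/- as red circles (n = 6) and Il10-/- as blue squares (n = 5); r is Pearson's r on log2(abundance + 0.5). Dbp with Tef (0.87) and Arntl with Npas2 (0.83) rise together, Arntl with Per3 (-0.43) is scattered around 1 low Il10-/- library, and Nr1d1 with Nr1d2 (0.12) shows no slope.

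Ciart was nearer to the tissue markers than to the other members, with none of which its r over the 11 libraries reached an unadjusted p under 0.05. Over the 11 libraries its r was 0.868 with the score of 10 epithelial genes and -0.54 with the smooth muscle score, while its r with Tef was -0.36 and with Nr1d2 -0.42. For the other members the epithelial score ran from -0.66 for Nr1d2 to 0.283 for Nr1d1. These values are descriptions, since all genes share the 11 libraries and their scaling.

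Among all 13292 other genes tested, the closest in pattern to Arntl were Wdr1, an actin-disassembly factor (r = 0.977), Pcgf5, a Polycomb group gene (0.967), and Specc1 (0.953). The most opposed were Chil6 (-0.94), Faah, a fatty acid amide hydrolase (-0.93), and Xkr6 (-0.91). Chil6, between 0.285 and 2.97, and Xkr6, between 1.0 and 2.74, were low in all libraries, near the filter value of 1. Wdr1 was at 177.0 in Il10-/- Tnfr1-/- replicate 6 and 182.0 in Il10-/- replicate 1, the same 2 libraries as Arntl, and between 86.3 and 148.0 in the others. Npas2 ranked 141 of 13292 for likeness to Arntl, and Clock, the other partner of ARNTL, ranked 434 with r = 0.755. Csnk1d, which encodes the casein kinase 1δ that phosphorylates PER proteins, ranked 7 with r = 0.933, but Csnk1e, another casein kinase 1 gene, ranked 7110 with r = 0.08. The other members were spread from rank 1092 for Nr1d1 to 11237 for Per3.

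For Dbp, the closest were Kctd12 (r = 0.914), March9 (0.904) and Prnp, the prion protein gene (0.902). Entpd6 (-0.88), Itga3, an integrin subunit of epithelia (-0.87), and Rnpep (-0.87) were the most opposed. Kctd12 was between 11.9 and 22.3 in Il10-/- Tnfr1-/- and between 2.54 and 11.8 in Il10-/- libraries. Tef ranked 16 of 13292 for likeness to Dbp, ahead of all other members, and Cry2, a cryptochrome repressor, ranked 439 with r = 0.734. These ranks come from 11 libraries and carry no test.

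The other clock genes were counted from a list of 20, of which 15 passed the filter on low values (a value over 1 in at least 6 libraries). Hlf, Rora, Rorb, Bhlhe41 and Fbxl21 did not pass. Of the 15, 11 were higher and 4 lower on average in Il10-/- Tnfr1-/- colons, with a median log2 fold change of 0.25, beside 55.2% higher and a median of 0.05 over all genes. At an unadjusted limma p under 0.05 there were 2, both higher in Il10-/- Tnfr1-/- colons, beside 8.4% of all genes, and 0 passed after adjustment (0.535 for both). Prkaa1, which encodes the AMPK subunit that marks CRY1 for breakdown, averaged 16.9 ± 3.57 (SD, n = 6) in Il10-/- Tnfr1-/- and 10.8 ± 2.54 (SD, n = 5) in Il10-/- colons (log2 fold change 0.63 ± 0.181, exact permutation p = 0.0108). Fbxw11, which encodes an F-box protein that targets PER proteins, averaged 24.5 ± 5.69 (SD, n = 6) in Il10-/- Tnfr1-/- and 16.2 ± 5.83 (SD, n = 5) in Il10-/- colons (log2 fold change 0.61 ± 0.231, exact permutation p = 0.039). With the leading digit of the sample name as a covariate the log2 fold change was 0.20 for Fbxw11 and 0.55 for Prkaa1, and neither stayed under an unadjusted limma p of 0.05. Fbxw11 also missed it with the muscle score as a covariate (0.48) and without Il10-/- replicate 5 (0.55) or replicate 6 (0.49).

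The core partners outside the 10 were also uneven between libraries. Clock was between 4.76 and 9.30 in Il10-/- Tnfr1-/- libraries, and between 2.92 and 5.07 in 4 Il10-/- libraries with 12.6 in Il10-/- replicate 1, the library with the most Arntl. Cry1 was at 24.4 in Il10-/- Tnfr1-/- replicate 6 and between 6.23 and 12.97 in the other 5 of that genotype, against 6.83 to 8.70 in Il10-/- libraries. Cry2 was between 4.82 and 7.98 in Il10-/- Tnfr1-/- and between 2.51 and 8.31 in Il10-/- libraries. Nfil3, which encodes a repressor that competes with DBP and TEF for the D-box, was between 4.19 and 10.1 in Il10-/- Tnfr1-/- and between 4.58 and 11.7 in Il10-/- libraries. The log2 fold changes were 0.29 ± 0.33, 0.38 ± 0.292, 0.28 ± 0.267 and -0.04 ± 0.264 (SE) for Clock, Cry1, Cry2 and Nfil3, with unadjusted limma p-values between 0.22 and 0.875. Single libraries decided these sizes. Without Il10-/- replicate 1 the log2 fold change was 0.61 for Clock, now under an unadjusted limma p of 0.05 (adjusted 0.245), and 0.07 for Cry2. Without Il10-/- replicate 3 or 6 that of Clock was 0.15 or 0.13, without Il10-/- Tnfr1-/- replicate 3 it was 0.17, and without Il10-/- replicate 3 that of Cry2 was 0.46. Without Il10-/- Tnfr1-/- replicate 6 that of Cry1 was 0.14. Each of the libraries highest in Arntl and Npas2 was the lowest of its genotype in Nfil3.

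Of 18 listed outputs of the clock, 17 were present under the listed symbol, and these were tested. On average 10 were higher and 7 lower in Il10-/- Tnfr1-/- colons, beside 55.2% higher over all genes. Wee1 alone, which encodes a mitotic kinase under clock control in mouse liver, had an unadjusted limma p under 0.05 (log2 fold change 0.55 ± 0.23, exact permutation p = 0.0476, limma adjusted p = 0.535). Next were Cys1, a ciliary gene (0.88 ± 0.422, exact permutation p = 0.0952), and Klf9, a Krüppel-like factor that glucocorticoids induce (0.96 ± 0.476, exact permutation p = 0.104). Wee1 missed an unadjusted limma p of 0.05 in 9 alternatives, among them the digit as a covariate (0.15), the muscle score as a covariate (0.42) and, left out in turn, Il10-/- Tnfr1-/- replicates 3 and 4 and Il10-/- replicates 3, 5 and 6 (0.44 to 0.54). Cys1 was at 0.11 with the digit and 0.05 with the muscle score, and Klf9 at 0.05 and 0.41. Klf9 was at 0.58 without Il10-/- replicate 6 and at 1.36 without Il10-/- replicate 1. Of 14 listed genes of the glucocorticoid response, 13 were tested, with 8 higher and 5 lower in Il10-/- Tnfr1-/- colons, beside the same 55.2%. Map3k6, a stress kinase gene, was the only one at an unadjusted limma p under 0.05, at 4.21 ± 0.805 (SD, n = 6) in Il10-/- Tnfr1-/- and 8.43 ± 3.65 (SD, n = 5) in Il10-/- colons (log2 fold change -0.83 ± 0.281, exact permutation p = 0.0216, limma adjusted p = 0.535). Pdk4, a metabolic kinase, had a log2 fold change of 1.22 ± 0.581 (exact permutation p = 0.0887), and 0.70 without Il10-/- replicate 1. It was at 2.39 with the digit and 1.79 with the muscle score as a covariate, and passed after adjustment in neither. Map3k6 missed an unadjusted limma p of 0.05 with the digit (-0.91) or the muscle score (-0.73) as a covariate. Both lists had a median of 0.19, beside 0.05 for all genes, and Klf9 stands in both. An unadjusted limma p under 0.05 was reached by 8.4% of all genes, so 1 gene in each list was near that share.

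At the level of transcripts, how a gene's abundance was divided differed among the members. Per2 had 100% of its signal on 1 transcript after rounding, and Nr1d1 and Nr1d2 had over 90% of theirs on the principal one (92.1% and 92.3%). Arntl was divided among ENSMUST00000047321.8 with 47.5% on average, ENSMUST00000210074.1 with 32.4% and ENSMUST00000211770.1 with 17.3%. The share of the first ran from 12.0% to 82.0% between libraries and that of the second from 0% to 83.3%. These 3 transcripts have 97.9%, 100% and 99.1% of their bases in another transcript of the gene, so reads from those bases fit more than 1 transcript. Per1 was similar, with the share of ENSMUST00000102605.2 between 0.0687% and 97.6%, and 100% of its bases shared. The results above use the sum per gene.

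**Figure D5:**
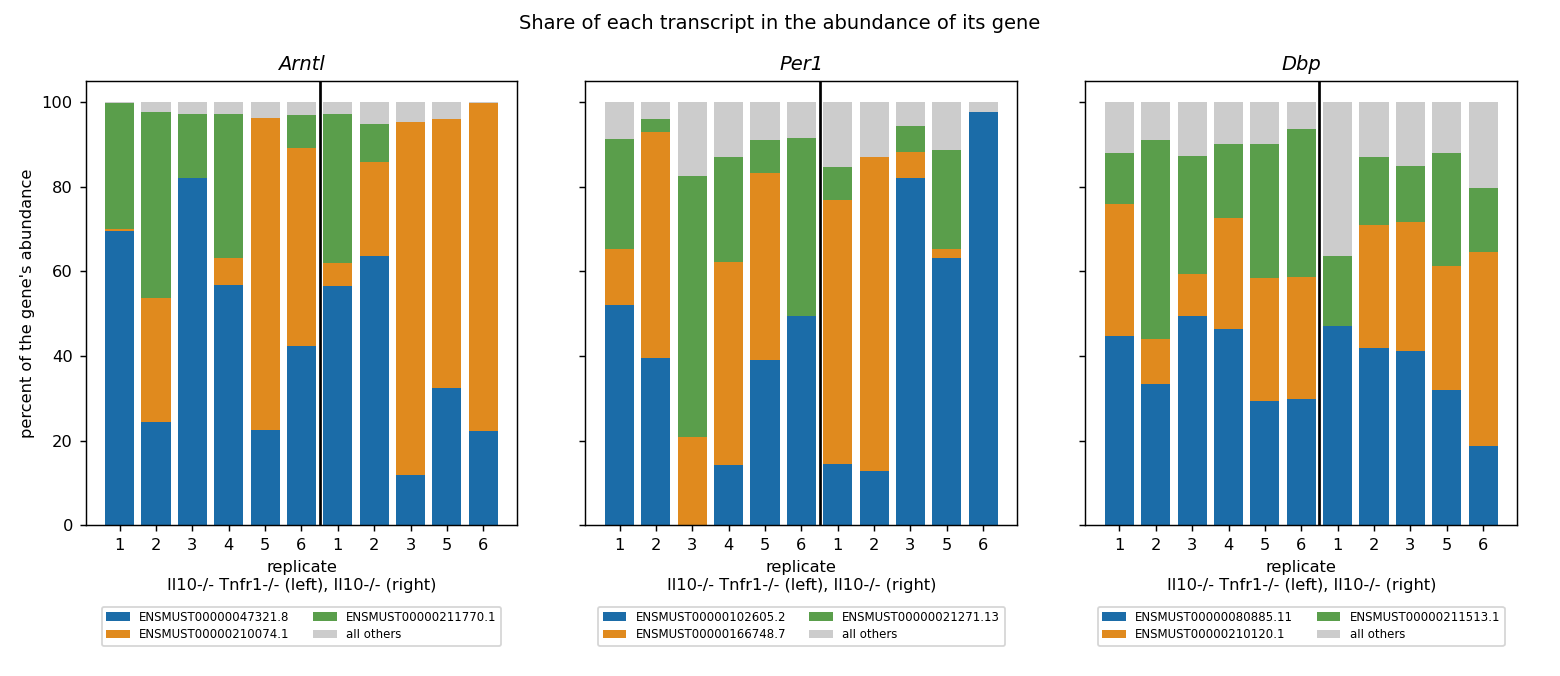
Share of the abundance of Arntl, Per1 and Dbp held by their 3 most abundant transcripts and by all others (percent) in each library, with Il10-/- Tnfr1-/- libraries left of the line and Il10-/- libraries right of it. The leading transcript of Arntl runs from 12.0% to 82.0% and that of Per1 from 0.0687% to 97.6%, while that of Dbp stays between 18.7% and 49.5%. In all 3 genes transcripts share bases, so the split is uncertain.

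Dbp kept a mixture in every library. Its principal transcript, ENSMUST00000080885.11, averaged 5.29 in Il10-/- Tnfr1-/- and 3.07 in Il10-/- libraries, and the minor ENSMUST00000211513.1 averaged 3.80 in Il10-/- Tnfr1-/- and 1.44 in Il10-/- libraries. They have 69.0% and 100% of their bases in another Dbp transcript, so reads from those bases fit more than 1 transcript here too. In the authors' deposited table, whose sample set may differ from the 11 libraries used here, the principal Dbp transcript had a log2 fold of 0.91 with p = 0.0143 and q = 0.684. The principal Nr1d2 transcript, ENSMUST00000090543.5, had a log2 fold of 0.55 with p = 0.0325 and q = 0.684 in the authors' deposited table. That table lists 43192 transcripts with a q-value, and 0 are under 0.05.

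On mm10, the plus-strand gene Dbp spans chromosome 7 from 45705088 to 45710203, and its exons share 539 bases with those of Sphk2 on the other strand. The minus-strand gene Nr1d1 spans chromosome 11 from 98767932 to 98775333, and 263 exon bases overlap the thyroid hormone receptor gene Thra on the other strand, an arrangement that places the 3′ ends of both genes on each other. The library kit keeps strand, but the labels do not state whether counting used it, so reads of such overlaps cannot be placed with certainty. Over the 11 libraries r was -0.08 for Dbp with Sphk2 and -0.05 for Nr1d1 with Thra. Sphk2 averaged 19.1 ± 3.67 (SD, n = 6) in Il10-/- Tnfr1-/- and 21.3 ± 6.02 (SD, n = 5) in Il10-/- colons, the opposite direction to Dbp.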

How the data were processed

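RNA of 11 mouse colons was used, of 12 in the labels. Per the labels' protocols, colons were homogenized in Trizol, and stranded mRNA libraries were read single-end. The submitters' processing notes name CASAVA, kallisto, sleuth and the build mm10, with no versions or settings. The authors deposited 1 table by transcript whose per-library values are a scaled signal (abundance) divided by transcript length, not counts, so depth is unknown. Its p-value, q-value and log2 fold columns hold a comparison deposited by the authors and are credited to them. The authors' mean log count minus log abundance had a slope of 1.103 on log transcript length (17817 transcripts over 1000 bases), where 1 means division by length. One per-sample column matched no sample title and was not used, and 1 Il10-/- sample (replicate 4) matched no column.

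The first row of each repeated transcript was kept (866 rows dropped), and 113193 transcripts were summed to 35688 genes. The 13293 genes above 1 in 6 or more libraries were tested with limma 3.58.1 in R 4.3.3, with intensity trend and robust moderation, on log2(value + 0.5), whose fold changes understate those of low genes. Tests were two-sided, and p-values were adjusted by Benjamini and Hochberg's method, with calls under 0.05. Exact permutation p-values used all 462 assignments, with 0.00216 the smallest possible. Pair correlations used 100000 permutations in numpy 2.4.6. They were exact with 9 or fewer libraries. On values centred within genotype, all permutations within genotype were used. Gene coordinates are from GENCODE M21 and promoters from RefSeq. The limma step was tested on simulated data. The members, lists and named genes (all 10 members; Clock, Cry1, Cry2, Nfil3 and other clock genes of p under 0.05; 3 genes of smallest p per other list; 3 genes most and least like Arntl and Dbp, without predicted genes) were chosen with earlier results of these data known. Replicate numbers follow accession order and pair nothing. The labels do not say whether animals shared a litter, so p-values measure the spread between these samples. Alternatives were the pseudocount, filter, scaling, moderation, covariates, repeated rows and each library left out.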

Additional observations from a re-analysis of the deposited data

Results flagged for a closer look

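Of the values examined, 5 stood apart from the other libraries of their genotype by Dixon's test at 95%, among 42 sets of 21 genes in 2 genotypes; chance flags about 1 in 20 sets. Arntl was at 11.04 in Il10-/- replicate 1, against 5.338 to 6.15 in the other 4 Il10-/- libraries, and Clock was at 12.59 in the same library, against 2.917 to 5.073. Per2 was at 9.80 in Il10-/- replicate 5, against 3.62 to 4.72 in the other Il10-/- libraries. Cry1 was at 24.4 in Il10-/- Tnfr1-/- replicate 6, against 6.231 to 12.97 in the other 5 of that genotype. Prkaa1 was at 15.2 in Il10-/- replicate 2, against 9.02 to 10.6 in the other Il10-/- libraries.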

How the results depend on the processing

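No paired analysis was possible because replicate numbers only follow accession order. The count of genes called, 0, became 1 with median-ratio size factors and 1 with quantile normalization (Tnfrsf1a), and ranged from 0 to 2 with a library left out (2, Il18 and Tnfrsf1a, without Il10-/- replicate 2). The 2 members at an unadjusted p under 0.05 became 0 with the leading digit of sample names as covariate, 0 among names starting with 1 and 0 with the smooth muscle score as covariate, and 2 to 3 with a library left out. Of the member pairs, 3 at the start, 12 passed with an equal total per library, 1 with median-ratio factors, 0 after centring within genotype, 0 on residuals of the muscle score, 0 without the 2 libraries highest in Arntl and Npas2 (an alternative chosen after seeing the data) and 0 to 5 with a library left out (0 without Il10-/- replicates 1, 2 or 6). Dbp and Nr1d2 were higher in Il10-/- Tnfr1-/- colons under every setting, at 0.55 to 0.85 and 0.42 to 0.67 with a library left out.

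Small fold changes turned sign. Quantile normalization gave Arntl -0.0653, Npas2 -0.0169, Per2 -0.102 and Nr1d1 -0.0284. The digit as covariate, and equally the names starting with 1, gave Arntl -0.264, Npas2 -0.204, Nr1d1 -0.289, Clock -0.256 and Nfil3 0.424. The muscle score gave Arntl -0.032, Per2 -0.0238 and Ciart 0.148. An equal total gave Per1 0.0717, Ciart 0.0553 and Nfil3 0.0955, and moved the median of all genes to 0.18, against 0.05. With a library left out the ranges were -0.0281 to 0.254 for Arntl, -0.165 to 0.0451 for Per1, -0.0862 to 0.281 for Per2, -0.0474 to 0.248 for Nr1d1, -0.169 to 0.0339 for Ciart and -0.204 to 0.113 for Nfil3. As the values are not counts, depth limits cannot be given. The r of Arntl and Per3 was 0.0127 with an equal total and 0.232 without the 2 libraries, and that of Npas2 and Per3 was 0.0459 and 0.149. Other settings gave a more negative r for Arntl with Per3 and Npas2 with Per3. On muscle score residuals r was -0.531 and -0.603, and after centring within genotype it was -0.493 and -0.546. With a library left out r ran from -0.746 to -0.0206 and from -0.594 to -0.124. The causes were not tested.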
